A study of Gallus gallus with 12 samples.

Results

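The cytosolic ribosomal protein genes encode the proteins of the ribosome that translates messenger RNA outside the mitochondria. Members were chosen by name alone: a gene belonged to the family if its symbol was RPL or RPS followed by a number, with or without a closing A, X or L and a further digit, or was *RPSA*, *RPLP0*, *RPLP1* or *RPLP2*. This rule found 70 of the 24356 genes in the expression files, 44 named for the large subunit (RPL) and 26 for the small subunit (RPS). *RPSA*, *RPL10*, *RPL10L*, *RPL13A*, *RPL36A* and *RPL39L* were not matched to a symbol in the files and are not analysed here. The family was measured in DT40 cells, a chicken B-cell lymphoma line in which genes are readily disrupted. Polyadenylated RNA was sequenced from 3 independent populations of each of 4 lines: wild type and lines disrupted in *TIMELESS*, *DDX11* or *FANCJ*, written *timeless*, *ddx11* and *fancj* below. Timeless is a component of the replication fork protection complex, and DDX11 and FANCJ are DNA helicases; the series asked how gene expression changed when each was lost. No line was treated with a drug, and all were grown in the same serum-supplemented medium. By the labels, *timeless* and *ddx11* were made with CRISPR-Cas9, and the study describes *fancj* as a line from earlier work. Neither the labels nor the methods say which clone was sequenced, so that a difference peculiar to a clone and the effect of its disrupted gene cannot be told apart.

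A ribosome is built of ribosomal RNA and one copy of most ribosomal proteins, made in near equal numbers and assembled in the nucleolus. The messenger RNAs of these proteins are short and among the most abundant of any growing cell. In vertebrates they begin with a pyrimidine-rich tract through which their translation follows the activity of the growth-controlling kinase mTOR. Some members have further roles: RPL5 and RPL11 bind the ubiquitin ligase MDM2 in human cells, RPS6 is the substrate that gave the S6 kinases their name, and RPS27A is made as a fusion with ubiquitin. The genes are scattered over many chromosomes.

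The 12 libraries held between 13406041 and 50160512 expected counts, which are the read counts that RSEM assigned to genes. Of these, 895730 to 3685357 belonged to the family. *TIMELESS* was lower in the 3 *timeless* libraries (21.4 to 24.3 TPM) than in wild type (34.2 to 48.4 TPM), and *DDX11* was lower in *ddx11* (4.53 to 7.03 TPM) than in wild type (10.5 to 15.5 TPM). *TIMELESS* was also below wild type in the libraries labelled *fancj* (30.5, 21.3 and 8.88 TPM), so a low level of it was not particular to *timeless*. TPM is a transcript level per unit of gene length, scaled to the same total in every library. *BRIP1*, the gene for FANCJ, stood at 7.81, 8.47 and 1.23 TPM in the libraries labelled *fancj* against 8.52, 5.16 and 6.59 TPM in wild type, so its level did not separate the lines. These libraries are called *fancj* by their label in what follows. All 12 B-cell markers examined averaged at least 1 TPM, with a sum of 522.1 to 1923 TPM per library. Their sum was lower in *fancj* (522.1 to 1209 TPM) than in wild type (1302 to 1923 TPM). The same level was reached by 3 of 9 T-cell markers (*CD3D*, *CD8A* and *CD5*, with *CD3E* and *CD4* below it), 3 of 7 myeloid, 2 of 4 erythroid and 2 of 8 fibroblast markers, with *HBA1* and *DCN* at 0 in all libraries. The summed myeloid markers were higher in *fancj* (61.3 to 75.7 TPM) than in wild type (25.5 to 49.4 TPM), and the summed T-cell markers were lower in *timeless* (74.1 to 141.7 TPM), *ddx11* (139.2 to 158.9 TPM) and *fancj* (98.9 to 139.5 TPM) than in wild type (160.7 to 230.2 TPM). In wild type that sum was mostly *CD3D*, which was called lower in *ddx11* (log2 fold change -1.43, edgeR adjusted p = 0.00906). *CD5*, which some B cells also express, went the other way and was called higher in all 3 mutants, with log2 fold changes of 1.70 in *timeless*, 3.27 in *ddx11* and 2.93 in *fancj* (edgeR adjusted p = 0.0275, 0.00335 and 0.0171). Summed erythroid markers were higher in *fancj* (39.8 to 50.8 TPM) than in wild type (27.1 to 29.7 TPM), with *HBBA* at 2.03, 10.8 and 10.8 TPM against 0, 0.27 and 0 TPM (edgeR adjusted p = 0.0449), and overlapped with wild type in *timeless* (15.0 to 36.2 TPM) and *ddx11* (24.7 to 35.9 TPM). Summed fibroblast markers were 9.36 to 10.4 TPM in wild type, 7.13 to 9.32 TPM in *timeless*, 12.9 to 13.6 TPM in *ddx11* and 4.38 to 24.9 TPM in *fancj*, so that they were lower in *timeless* and higher in *ddx11* without overlap. The part of any of these markers in the values of the family was not tested.

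The family was highly expressed in every line. Of its 70 members, 55 averaged at least 1000 TPM over the 12 libraries, 64 averaged at least 500 TPM, and 50 were among the 100 genes with the highest mean level. The highest was *RPLP1* (ENSGALG00000030878), a protein of the ribosomal stalk that recruits elongation factors, with 8228, 6713 and 6643 TPM in wild type. Its level was 4959, 7805 and 5286 TPM in *timeless*, 6553, 10082 and 9658 TPM in *ddx11*, and 8595, 6872 and 13729 TPM in *fancj*. The lines overlapped for *RPLP1*, and within *fancj* replicate 3 stood far above the other libraries. *RPS3A* followed with 4748, 3687 and 3645 TPM in wild type, then *RPS19* with 3927, 3831 and 3811 TPM, *RPL14* with 4495, 3528 and 3749 TPM and *RPL13* with 4516, 3503 and 3528 TPM. These 4 genes were close to each other in wild type and their ranges overlapped. The other stalk genes, which serve in the same structure as *RPLP1*, were lower per unit of length: *RPLP0* stood at 4317, 3456 and 3506 TPM in wild type and *RPLP2* at 1193, 1025 and 1043 TPM.

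Only 6 members averaged under 500 TPM. *RPS21* was the highest of them, with 309.7, 299.3 and 283.5 TPM in wild type. The remaining 5 carry names that pair them with an abundant member: *RPL7L1*, *RPL22L1*, *RPL26*, *RPS27L* and *RPL3L*, the last of which had 1.06, 0.88 and 1.51 TPM in wild type. RPL3L replaces RPL3 in the skeletal and heart muscle of mammals. The RefSeq gene table gives RPL26 as an alternative name for a pair of neighbouring genes, so which gene the files call *RPL26* is uncertain. *RPL26L1* had 2083, 1704 and 1672 TPM in wild type, against 32.1, 41.5 and 48.0 TPM for the gene called *RPL26*. The latter was counted as a member by its symbol alone, and whether it encodes a ribosomal protein is uncertain.

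The family took up a large and variable share of the transcripts of each library. In wild type its summed TPM made up 16.71%, 13.82% and 13.83% of the total, a mean of 14.79% ± 1.67 (SD, n = 3). The share was 13.95%, 21.39% and 15.6% in *timeless* (16.98% ± 3.91), 14.08%, 19.83% and 17.93% in *ddx11* (17.28% ± 2.93), and 16.27%, 14.06% and 22.92% in *fancj* (17.75% ± 4.61; SD, n = 3 in each). Each mutant mean was above the wild-type mean, but every mutant line had at least 1 library inside the wild-type range, and the SD of each mutant line was larger than its difference from the wild-type mean. The highest library exceeded the lowest 1.21-fold in wild type, 1.53-fold in *timeless*, 1.41-fold in *ddx11* and 1.63-fold in *fancj*. Counted as reads rather than per unit of length, the family held 6.68% to 13.48% of the expected counts of a library, and the same libraries were highest in each line.

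**Figure D1:**
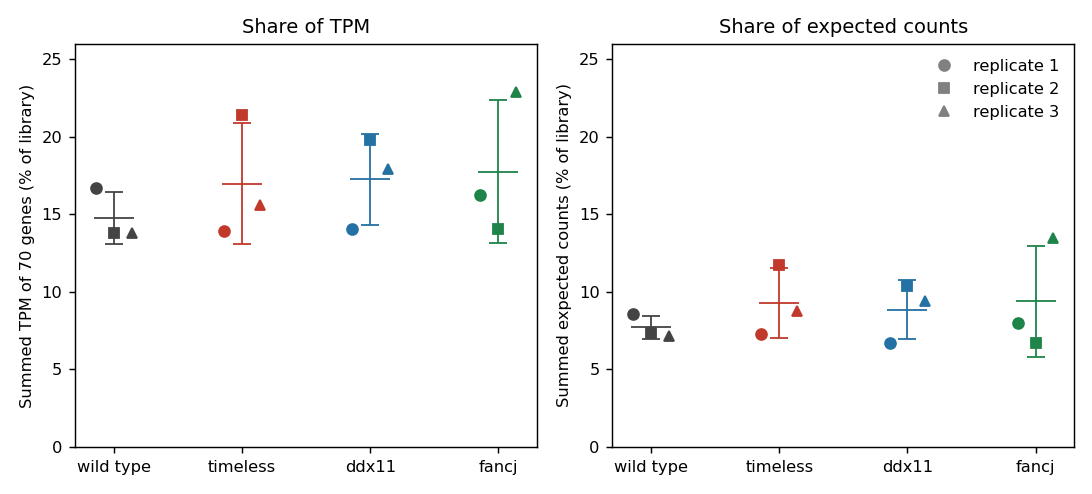
Share of each library taken by the 70 ribosomal protein genes, as percent of TPM (left) and percent of expected counts (right); points are libraries, with bars for the mean and SD of 3 replicates of a line. The shares of TPM run from 13.82% to 22.92%, and the lines overlap on both scales.

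Within a line the members moved together. Replicate 1 was the highest wild-type library for 65 of the 70 genes, replicate 2 the highest for 63 in *timeless* and for 63 in *ddx11*, and replicate 3 the highest for 67 in *fancj*. The median SD of a member's log2 TPM between the 3 libraries of a line was 0.16 in wild type, 0.35 in *timeless*, 0.26 in *ddx11* and 0.39 in *fancj*. Once each gene was divided by the median member of its own library, these SDs were 0.06, 0.08, 0.06 and 0.12. The SD became smaller for 56, 61, 64 and 67 of the 70 members, respectively, so most of the spread between replicates was shared by the family. For comparison, all genes averaging 10 TPM or more had a median SD of 0.16, 0.28, 0.23 and 0.42 in the same lines.

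Since the members are short, with effective lengths (the positions from which a fragment can start) of 317 to 2479 bases and a median of 776.6 against 1987 for the 11379 genes that averaged 1 TPM or more, the joint movement was set beside gene length. Each library was compared, gene by gene, with the mean of the other replicates of its line on the log2(TPM + 1) scale. In *fancj* replicate 3 genes were lower with length above 500 bases: the median log2 ratio was -0.16 for the 799 genes under 500 bases, 0.13 for all genes of 500 to 1000 bases, -0.27 at 1000 to 2000, -0.72 at 2000 to 4000 and -1.35 above 4000 bases. The members' median in that library was 0.63, and members of 500 to 1000 bases had a median of 0.62 against the 0.13 of all genes in that class. The 11 members under 500 bases had a median of 0.79 and the 24 members of at least 1000 bases one of 0.55. The family was thus higher in *fancj* replicate 3 than the median of all genes of its own length, which were not matched to it in abundance. By effective length, long members were among those that were high there. *RPS21*, at 2479 bases, had 521.0 TPM against 322.9 and 271.9 TPM in the other *fancj* libraries. *RPL35*, at 1959 bases, had 1419 TPM against 801.7 and 671.2 TPM. These lengths follow the annotation used, and whether they match the transcripts made in DT40 cells was not tested. *RPL4* and *RPL3*, at 1983 and 1285 bases and singled out after their values had been seen, were not above both of the other libraries: *RPL4* had 1783 TPM in *fancj* replicate 3 against 2273 and 1945 TPM in the other *fancj* libraries, and *RPL3* had 2525 TPM against 3004 and 2199 TPM.

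In the highest library of each other line, the level of all genes varied less with length. In *timeless* replicate 2 the members' median log2 ratio was 0.54, while all genes had medians of -0.10 to 0.09 across the 5 length classes. In *ddx11* replicate 2 it was 0.31 against class medians of -0.10 to -0.02, and in wild-type replicate 1 it was 0.26 against -0.03 to 0.11. In these 3 libraries the members' median stood above the median of all genes in every length class. The genes of a class were not matched to the members in abundance. Other libraries of the mutant lines had clearer length trends. From the shortest to the longest class, medians went from 0 to 0.27 in *timeless* replicate 1 and from 0 to 0.32 in *ddx11* replicate 1. The members' medians there were -0.41 and -0.40. Class medians went from 0 to -0.44 in *timeless* replicate 3 and from -0.02 to -0.32 in *ddx11* replicate 3, with members' medians of -0.18 and 0.07. Members shorter than 500 bases, of 500 to 1000 bases and of at least 1000 bases moved alike in *timeless* replicate 2, with medians of 0.51, 0.56 and 0.53. In *ddx11* replicate 2 these medians were 0.30, 0.32 and 0.30. The difference between the highest and the lowest slope of log2 ratio on log2 length in a line was 0.02 in wild type, 0.10 in *timeless*, 0.07 in *ddx11* and 0.30 in *fancj*, all per doubling of length and across genes, which are not independent replicates. The corresponding range of the members' median was 0.41, 0.96, 0.71 and 1.12.

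**Figure D2:**
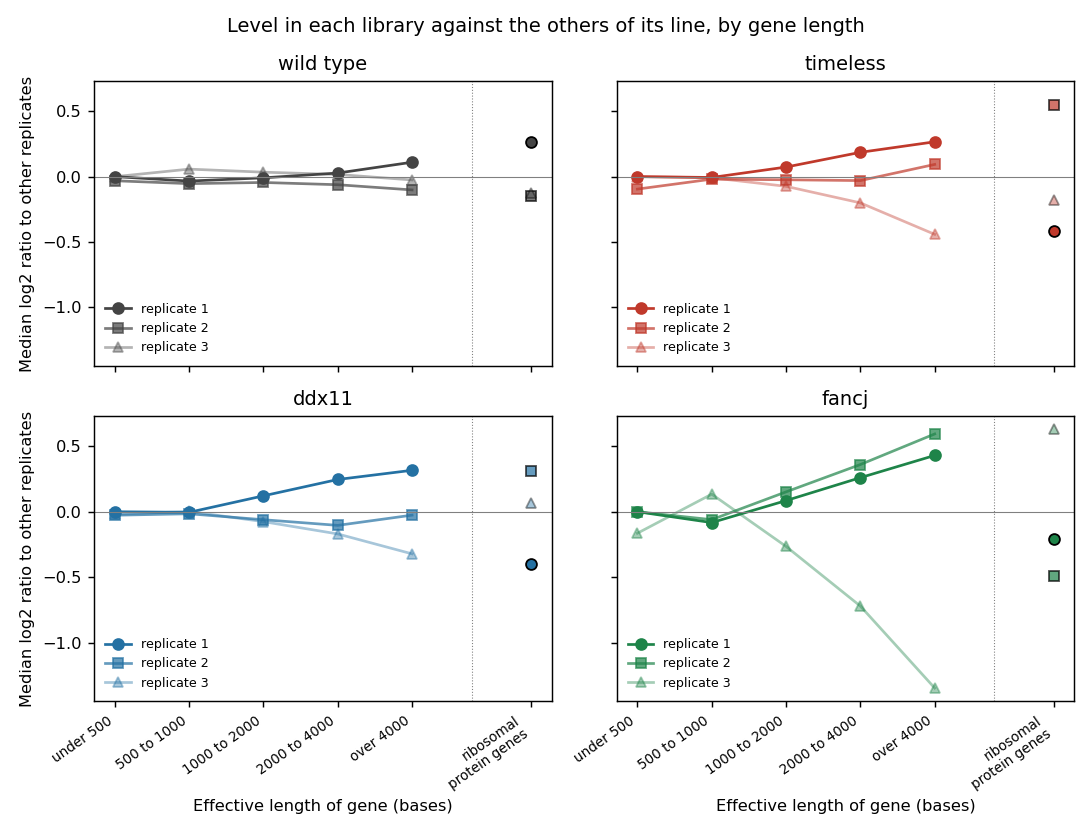
Median log2 ratio of each library to the other replicates of its line, for all genes averaging 1 TPM or more in 5 classes of effective length (lines) and for the ribosomal protein genes (outlined points at the right of each panel). In *fancj* replicate 3 long genes fall to -1.35 and the family lies at 0.63, whereas in *timeless* replicate 2 the family lies at 0.54 while all length classes stay near 0.

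Other genes of the translation machinery were set beside these swings. Elongation factors and related transcripts whose translation is also growth-regulated (14 genes, among them *EEF1A1* and *EEF2*) had a median log2 ratio of 0.39 in wild-type replicate 1, 0.50 in *timeless* replicate 2 and 0.35 in *ddx11* replicate 2, all libraries in which the ribosomal protein genes were high, but of -0.03 in *fancj* replicate 3. The 70 mitochondrial ribosomal protein genes had medians of -0.16, -0.35, -0.24 and 0.43 in these 4 libraries, and the 44 ribosome assembly genes had -0.20, -0.35, -0.41 and -0.33. The assembly genes thus had negative medians in all 4 of these libraries, and the mitochondrial family had a positive one only in *fancj* replicate 3. The median of all genes averaging 1 TPM or more was 0.02, -0.02, -0.07 and -0.58 in the same libraries. In *fancj* replicate 3 the medians of all these lists therefore stood above that of all genes. In the other libraries the elongation factors stood above it, and the assembly and mitochondrial genes below it.

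Each mutant was then compared with wild type, and *timeless* with *ddx11*, to ask whether loss of the replication factors altered the family. No member passed the test in any of the 4 comparisons (edgeR quasi-likelihood test with Benjamini-Hochberg adjustment over all genes tested, adjusted p under 0.05). All 70 had reached the filter, a mean of 1 TPM in a line of the comparison. Of all genes tested, 8.2% passed in *timeless*, 2.62% in *ddx11*, 4.29% in *fancj* and 5.12% between *timeless* and *ddx11*. In simulated data the same fit called 44.4%, 54.0%, 5.94% and 31.8% of genes changed by 1 on the log2 scale, in that order. The changed genes were drawn at random from all genes tested, and the simulation held no shift shared by a family. These percentages are therefore not rates for the members. A change of that size or smaller in a member could go uncalled, but how often was not tested. At an unadjusted p under 0.05 the counts of members were 5, 1, 1 and 0, against 21.7%, 11.1%, 16.9% and 18.7% of all genes. DESeq2 called 1 member in *timeless*, 0 in *ddx11*, 1 in *fancj* and 0 between *timeless* and *ddx11*, where it called 12.9%, 4.77%, 11.2% and 10.1% of all genes. A fit that blocked on replicate number also called 0 members in each comparison, while it called 8.98%, 1.24%, 4.2% and 13.9% of all genes. Between *timeless* and *ddx11*, whose same-numbered libraries varied together, the blocked fit brought some members close to the threshold. There *RPL7* had a log2 fold change of -0.44 (edgeR adjusted p = 0.0575, 0.452 without the block). *RPL23* had 0.44 (edgeR adjusted p = 0.0612, 0.438 without it) and *RPS20* -0.42 (0.0694, 0.519 without it).

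Most fold changes nevertheless had the same sign. The log2 fold change was above 0 for 62 of 70 members in *timeless*, 67 in *ddx11*, 69 in *fancj* and 56 between *timeless* and *ddx11*. The medians were 0.31, 0.17, 0.42 and 0.15, against 0.01, 0.0001, 0.03 and 0.02 over all genes tested. The median SE of a member was 0.23, 0.20, 0.38 and 0.28, so that the median member differed by little more than 1 SE at most. The mutant comparisons share the wild-type libraries and are not independent of each other. The values rested on single libraries: the median in *fancj* was -0.13 without its replicate 3 and 0.66 without its replicate 2, that in *timeless* was 0.09 without its replicate 2, and that in *ddx11* ran from 0.03 to 0.35 over the libraries left out. Leaving out a library also took the median between *timeless* and *ddx11* as low as -0.02.

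The members with the largest fold changes in *timeless* were *RPL23*, *RPL27* and *RPS24*. *RPL23*, a large-subunit protein, had 2559, 2230 and 2352 TPM in wild type and 2697, 4540 and 3333 TPM in *timeless*. The lines did not overlap, and the log2 fold change was 0.64 (SE 0.23, edgeR adjusted p = 0.149). DESeq2 gave an adjusted p of 0.0486 for it. *RPL27* had 1868, 1548 and 1552 TPM in wild type and 1878, 3172 and 2074 TPM in *timeless*, a log2 fold change of 0.58 (SE 0.24, edgeR adjusted p = 0.204). *RPS24*, one of the genes mutated in human Diamond-Blackfan anaemia, had 3315, 2892 and 3002 TPM against 3181, 5266 and 4210 TPM, a log2 fold change of 0.56 (SE 0.23, edgeR adjusted p = 0.207). *timeless* replicate 2 was the highest library for each of these genes, and *RPS24* overlapped with wild type. In all, 6 members were higher in every *timeless* library than in any wild-type library (*RPL38*, *RPL23*, *RPL27*, *RPS6*, *RPL31* and *RPS19*) and 0 were lower, where 11.8% of all genes were higher without overlap and 15.7% lower.

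In *ddx11* the largest changes were those of *RPL22L1*, *RPS28* and *RPL3L*. *RPL22L1* had 145.2, 98.5 and 97.5 TPM in wild type and 101.1, 252.4 and 149.9 TPM in *ddx11* (log2 fold change 0.52, SE 0.33, edgeR adjusted p = 0.635). *RPS28*, a small-subunit protein, had 667.0, 620.3 and 605.0 TPM against 591.8, 1161 and 991.6 TPM (0.49, SE 0.26, edgeR adjusted p = 0.555). For both genes *ddx11* replicate 1 lay within or below the wild-type range and the other libraries above it. Without that replicate *RPS28* passed the test, with a log2 fold change of 0.78 (edgeR adjusted p = 0.0297), whereas without replicate 2 it was at 0.27 (edgeR adjusted p = 1.0) and *RPL22L1* at 0.08. *RPL3L* had a log2 fold change of 0.47 (SE 0.39, edgeR adjusted p = 0.705) at levels of 1.59 to 1.73 TPM in *ddx11*. Members that did not overlap with wild type were *RPL3L* and *RPS27L*, both higher, and 0 were lower, where 10.7% of all genes were higher without overlap and 3.66% lower.

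In *fancj* the largest change was that of *RPS27L* (ENSGALG00000052612), a paralogue of *RPS27* that is induced by p53 in human cells. It had 13.7, 13.2 and 14.3 TPM in wild type and 32.2, 31.5 and 56.3 TPM in *fancj*, with no overlap. Its log2 fold change was 1.71 (SE 0.43), and the edgeR adjusted p was 0.078. Over the alternatives the adjusted p ran from 0.00265 with DESeq2's Wald test to 0.268 without wild-type replicate 3, and without *fancj* replicate 3 the gene passed with a log2 fold change of 1.05 (edgeR adjusted p = 0.00857). In *timeless* it had 17.7, 10.2 and 23.8 TPM and in *ddx11* 20.2, 17.4 and 19.6 TPM, with log2 fold changes of 0.40 (SE 0.30, edgeR adjusted p = 0.489) and 0.41 (SE 0.15, edgeR adjusted p = 0.293). The effective length of *RPS27L*, which follows the annotation used, was 2242 bases. By that length it was high in *fancj* replicate 3 although genes of that length were low there. *RPL38*, which in the mouse is needed for translation of a subset of Hox messenger RNAs, had 2147, 1960 and 1990 TPM in wild type and 2721, 2408 and 4687 TPM in *fancj* (0.86, SE 0.43, edgeR adjusted p = 0.38). Without *fancj* replicate 3 its log2 fold change was 0.18. At 317 bases it was the shortest member. *RPLP2* had 1268, 1050 and 2395 TPM in *fancj* (0.65, SE 0.44, edgeR adjusted p = 0.526), and its log2 fold change was -0.06 without replicate 3. *RPL38*, *RPS2*, *RPL7L1* and *RPS27L* were higher in every *fancj* library than in any wild-type library and 0 members were lower, against 14.1% and 8.82% of all genes. Between *timeless* and *ddx11* 0 members were free of overlap in either direction, against 7.64% of all genes higher in *timeless* and 16.7% lower.

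Because the family moved as a whole, the members were also compared with each other inside each library, as the TPM of a gene divided by that of the median member. On this scale *timeless* differed in a small group of genes. *RPL7*, *RPL30*, *RPLP1*, *RPS20*, *RPL14* and *RPL15* stood at 0.68, 0.70, 0.71, 0.73, 0.74 and 0.75 of their relative level in wild type, the 6 lowest ratios of the 70 members. *RPL7* had a relative level of 1.66, 1.59 and 1.61 in wild type and of 1.15, 1.08 and 1.06 in *timeless*. *RPLP1* had 3.41, 3.43 and 3.39 against 2.45, 2.46 and 2.34, and *RPL30* had 0.37, 0.40 and 0.40 against 0.27, 0.27 and 0.28. The libraries of each line lay close together and the lines were far apart. *RPS20* had 1.74, 1.85 and 1.85 against 1.29, 1.37 and 1.34. *RPL14* had 1.86, 1.80 and 1.92 against 1.31, 1.44 and 1.37, and *RPL15* had 1.76, 1.65 and 1.76 against 1.28, 1.41 and 1.21. In *ddx11* and *fancj* no library came as low as any *timeless* library for these genes: *RPL7*, for example, had 1.62, 1.65 and 1.61 in *ddx11* and 1.72, 1.63 and 1.62 in *fancj*. *RPL30*, *RPS20*, *RPL14* and *RPL15* were singled out after their values had been seen.

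**Figure D3:**
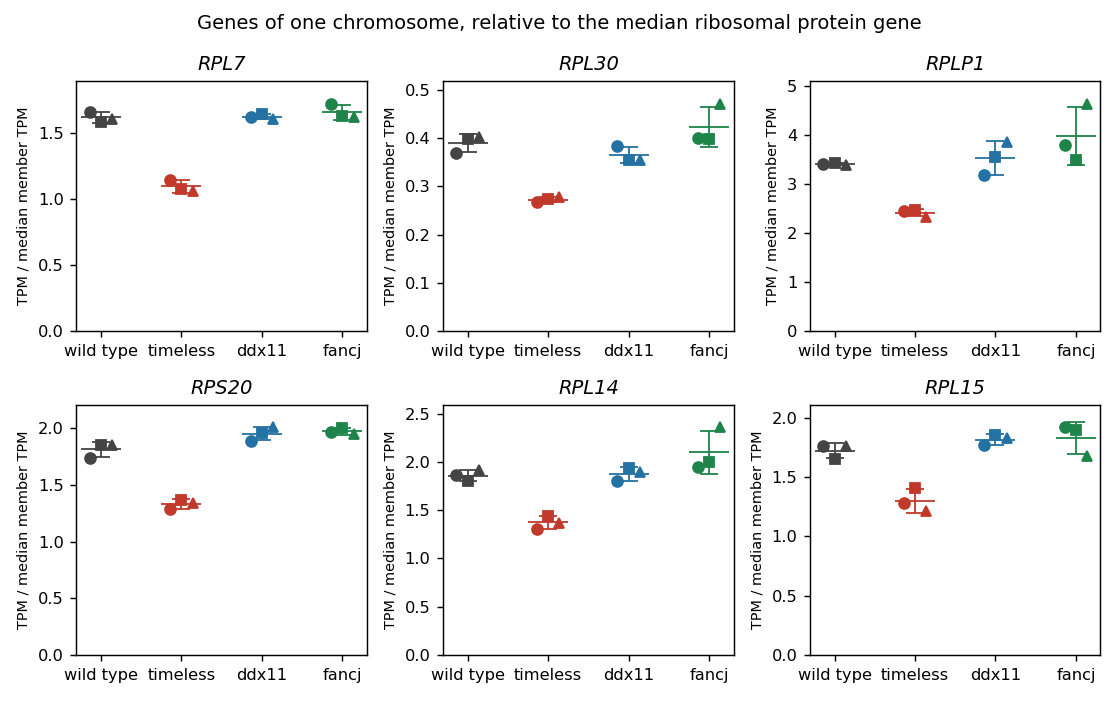
Level of 6 ribosomal protein genes divided by that of the median member of the same library; points are libraries, with bars for the mean and SD of 3 replicates. All 3 *timeless* libraries lie below all 9 other libraries in each panel, for *RPL7* at 1.06 to 1.15.

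These 6 genes lie on the same chromosome. By symbol 69 of the 70 members were matched to the RefSeq gene table of the GRCg7b assembly, on 27 chromosomes. Exactly these 6 were on the chromosome of *RPL7*, and the highest number of members on any chromosome was 9. Together they made up 15.61%, 15.2% and 15.46% of the family's TPM in wild type and 11.23%, 11.91% and 11% in *timeless*. The share was 15.59%, 16.15% and 16.12% in *ddx11* and 16.32%, 15.99% and 16.4% in *fancj*. In *timeless* the group was thus lower in every library than in any library of the other lines, including replicate 2, in which the family as a whole was highest. On the scale of the test, the 6 genes had a median log2 fold change of -0.16 (-0.27 to -0.09) in *timeless* against 0.32 for the other 64 members. Between *timeless* and *ddx11* the medians were -0.37 and 0.16, whereas in *ddx11* they were 0.21 and 0.16 and in *fancj* 0.46 and 0.42. The 6 genes lay below the rest of the family in both comparisons that hold *timeless*, and beside it in the others.

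The difference was shared by the chromosome. Of the genes tested in *timeless* that the table places there, 686 had a median log2 fold change of -0.56, and 27.7% were called lower and 1.75% higher. The 7685 tested genes placed on other chromosomes had a median of 0.01, with 2.15% called lower and 3.60% higher. On this scale the 6 ribosomal protein genes, with their median of -0.16, lay above the median of the chromosome, and the other members, with a median of 0.32, lay above that of the other chromosomes. In *ddx11* the genes of this chromosome had a median of -0.03 and in *fancj* of 0.12. A low level of this chromosome in *timeless* was known before the family was examined, so the 6 members are not independent evidence of it. Whether it belongs to the loss of Timeless or to the clone cannot be told apart.

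When the libraries were scaled to the ribosomal protein genes themselves, a setting chosen after seeing the data, the median of all genes moved to -0.25 in *timeless*, -0.12 in *ddx11*, -0.15 in *fancj* and -0.15 between *timeless* and *ddx11*. No member passed the test on this scale either, where 6.85%, 2.33%, 1.18% and 3.58% of all genes did. The 6 genes had log2 fold changes of -0.58 to -0.42 in *timeless*, with the lowest edgeR adjusted p at *RPL7* (-0.58, SE 0.21, adjusted p = 0.124) and the next at *RPLP1* (-0.51, SE 0.20, adjusted p = 0.156). In *timeless*, *RPL7*, *RPLP1* and *RPL30* had an unadjusted p under 0.05, as had 18.2% of all genes. Between *timeless* and *ddx11* the genes at that level were *RPL7*, *RPLP1*, *RPS20* and *RPL15*, against 11.9% of all genes. In *ddx11* 0 members and in *fancj* 1, *RPS27L*, reached that level, against 7.58% and 9.79% of all genes. In *timeless* the differences of the 6 genes thus separated all libraries but did not pass the adjusted test.

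**Figure D4:**
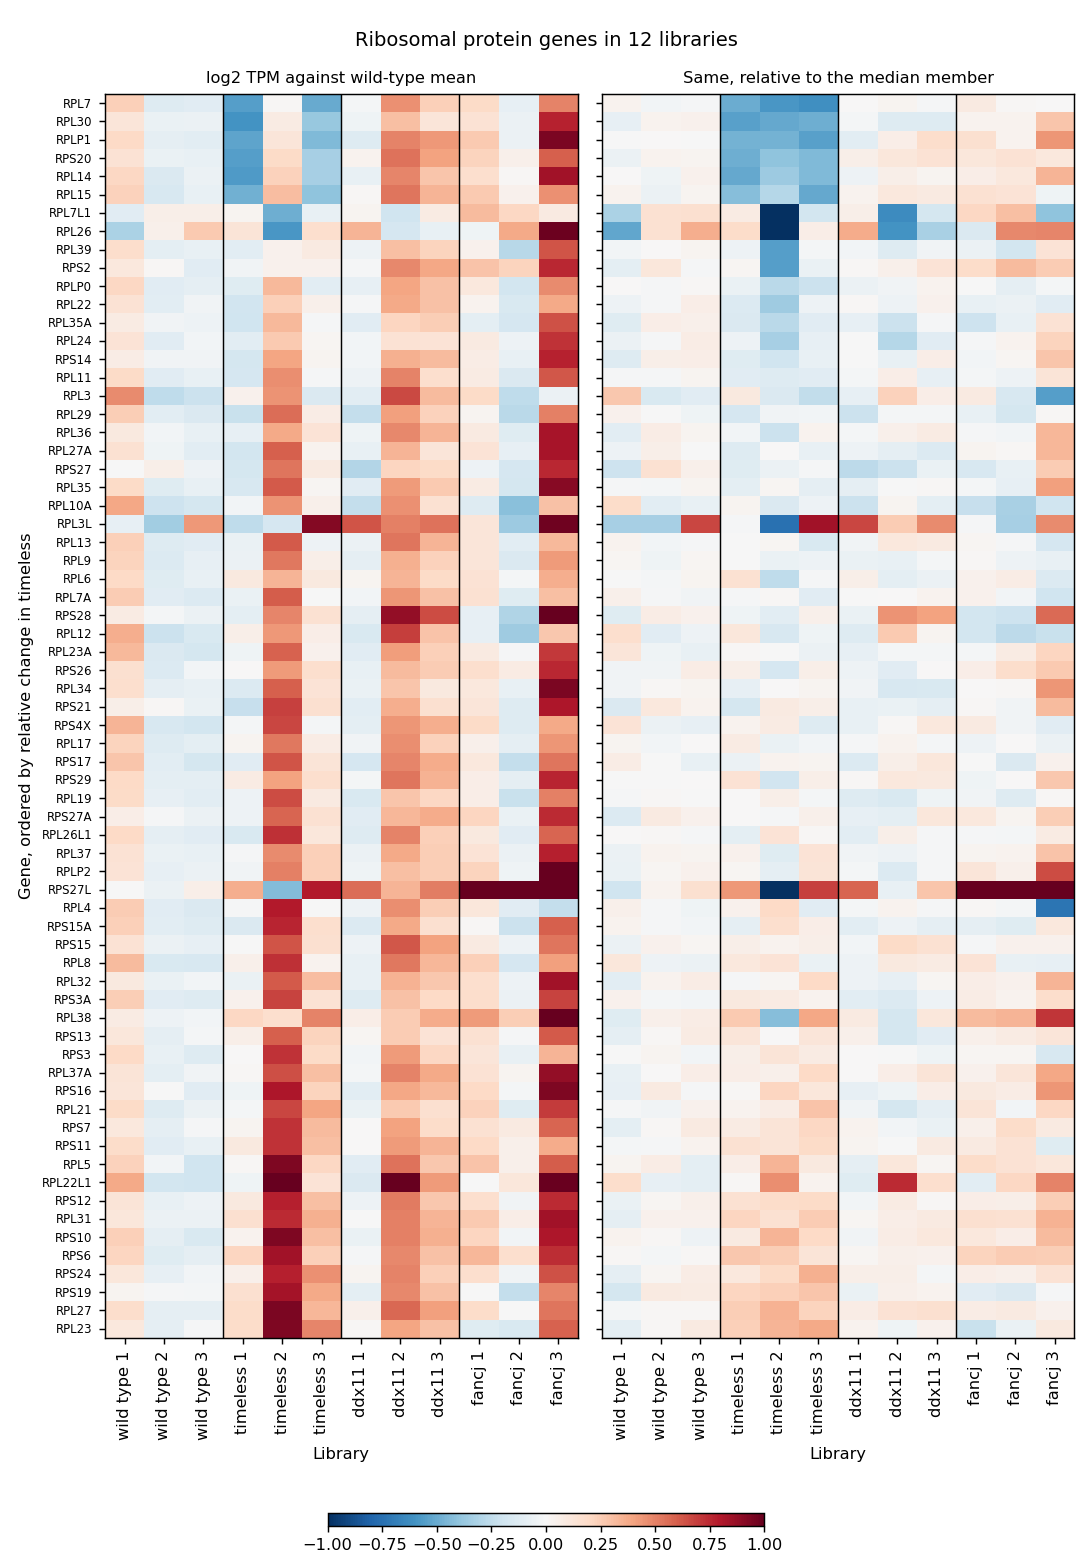
Log2 level of 68 of the 70 ribosomal protein genes (rows, ordered by their relative change in *timeless*) in 12 libraries (columns), as TPM against the wild-type mean (left) and after division by the median member of the same library (right); colours are clipped at -1 and 1. The whole-library shifts at left, as in *fancj* replicate 3, largely disappear at right, where the 6 genes at the top remain low in the *timeless* libraries.

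Other members also differed in their place in the family. In *timeless*, 19 members did not overlap with wild type on the relative scale, 11 higher and 8 lower, where 7.37% of all genes were higher and 15.3% lower when scaled in the same way. Division by the median member removes the shift that members share and carries it into genes that do not share it. On this scale the percentages of all genes are therefore not a like background for the counts of members. Besides the 6 genes above, the lower members were *RPLP0*, at 0.88 of its wild-type value, and *RPL11*, at 0.92. The higher ones included *RPL23* (1.25 of wild type), *RPL27* (1.21), *RPS19* (1.18) and *RPS6* (1.16), and 8 of the 11 were small-subunit genes. Small-subunit genes made up 41.62% ± 0.48 of the family's TPM in *timeless*, against 39.36% ± 0.83 in wild type, 39.37% ± 0.22 in *ddx11* and 39.89% ± 0.35 in *fancj* (SD, n = 3 in each). The lowest *timeless* library, at 41.06%, was above the highest wild-type library, at 40.07%. Between *timeless* and *ddx11*, 15 members were higher in *timeless* and 9 lower without overlap on the relative scale, against 6.28% and 9.5% of all genes. Of the 6 genes of the shared chromosome only *RPS20* belongs to the small subunit. The rest of that group, with *RPLP1* the most abundant member, count in the large subunit. Their lower level alone raises the small-subunit share in *timeless*. The share without them was not examined, so these shares do not show a shift among the other members.

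In *ddx11* the places within the family differed little from wild type. The percentages of all genes given below for *ddx11* and *fancj* are likewise not a like background. On the relative scale 5 members were higher and 8 lower than wild type without overlap, where 5.12% and 4.3% of all genes were. The largest of these ratios to wild type were 1.09 for *RPL27* and 1.08 for *RPS20*. Among the 8 lower members were *RPL34* at 0.92 of wild type and *RPL19* and *RPL21* at 0.93. In *fancj* 13 were higher and 3 lower, against 7.38% and 9.21% of all genes. *RPS6* was among the steadiest of these. Its relative level was 1.11, 1.09 and 1.11 in wild type and 1.29, 1.32 and 1.31 in *fancj*. On this scale the lines lay further apart than the libraries within each line. The edgeR fit scaled to the ribosomal protein genes nevertheless did not call *RPS6* in *fancj*. In that fit the estimate, 0.18 on the log2 scale, was smaller than the SE of 0.194, with 0.997 as the edgeR adjusted p. *RPL38* was at 0.89, 1.00 and 1.02 in wild type against 1.21, 1.22 and 1.58 in *fancj*. The lower members in *fancj* were *RPL10A* (0.84 of wild type), *RPL12* (0.86) and *RPL22* (0.95).

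Members with a known role of their own spread over much of the range of the family, and a difference between them and the rest was not tested. The 11 in the files had median log2 fold changes of 0.33 in *timeless*, 0.18 in *ddx11* and 0.45 in *fancj*, beside 0.31, 0.17 and 0.42 for the whole family, and 0 of them were called by edgeR or DESeq2 (1, 0, 0 and 0 at an unadjusted edgeR p under 0.05 in the 4 comparisons). Over all genes edgeR called 8.2%, 2.62%, 4.29% and 5.12%, and 21.7%, 11.1%, 16.9% and 18.7% had an unadjusted p under 0.05. *RPLP1* was the lowest of the 11 in *timeless*, at -0.19 (SE 0.24). *RPL5* and *RPL11*, whose proteins enter the ribosome together with its smallest RNA, had log2 fold changes in *timeless* of 0.50 (SE 0.28) and 0.19 (SE 0.22). *RPS19* and *RPS14*, each linked to a human anaemia when present in a single copy, had 0.56 (SE 0.23) and 0.17 (SE 0.21). *RPS27A*, which supplies ubiquitin as well as a small-subunit protein, had 0.33 (SE 0.22) there and 0.49 (SE 0.38) in *fancj*. None of these was beyond the edgeR threshold. *FAU*, which encodes a ribosomal protein fused to a ubiquitin-like protein and bears another name, ran between 1940 and 3260 TPM. It was not called in any comparison by edgeR or DESeq2, nor had it an unadjusted edgeR p under 0.05.

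For most paired names the ratio of the scarce to the abundant member overlapped between the lines. *RPL22L1* stood at 5.14% ± 0.75 of the TPM of *RPL22* in wild type, 6.71% ± 2.03 in *timeless*, 6.37% ± 2.22 in *ddx11* and 6.30% ± 1.40 in *fancj* (SD, n = 3 in each). *RPL7L1* stood at 7.11% ± 1.40 of *RPL7* in wild type, 8.29% ± 2.93 in *timeless*, 5.99% ± 1.43 in *ddx11* and 7.16% ± 1.67 in *fancj*, and *RPL3L* stayed between 0.0279% and 0.0890% of *RPL3* in all libraries. Some ratios varied widely within a line, so overlap between lines does not show that a balance was kept. Within *timeless*, *RPL7L1* ran from 4.96% to 10.5% of *RPL7*, and the gene called *RPL26* from 0.89% to 2.67% of *RPL26L1*. These pairs overlapped between all lines. *RPS27L* was the exception: it stood at 0.404%, 0.374% and 0.437% of *RPS27* in wild type and at 0.984%, 1.04% and 0.984% in *fancj*. The *fancj* libraries agreed closely with each other although their RPS27L levels differed. In *timeless* the ratio was 0.588%, 0.206% and 0.655%, and in *ddx11* it was 0.728%, 0.442% and 0.506%, both wider than either of the other lines. Every *ddx11* ratio was also above every wild-type ratio, though the lowest, 0.442%, lay close to the wild-type highest of 0.437%. Of the 70 members, 18 had an expected count that was not whole in at least 1 library, which shows that RSEM divided reads among genes or transcripts there. For 7 of them, among which were *RPL22*, *RPS2*, *RPL4* and *RPL3*, this held in all 12 libraries, so their levels are less certain. *RPS27* had a whole count in only 2 of the 12 libraries and *RPS27L* in only 1, so that the ratio between them rests on divided reads too.

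**Figure D5:**
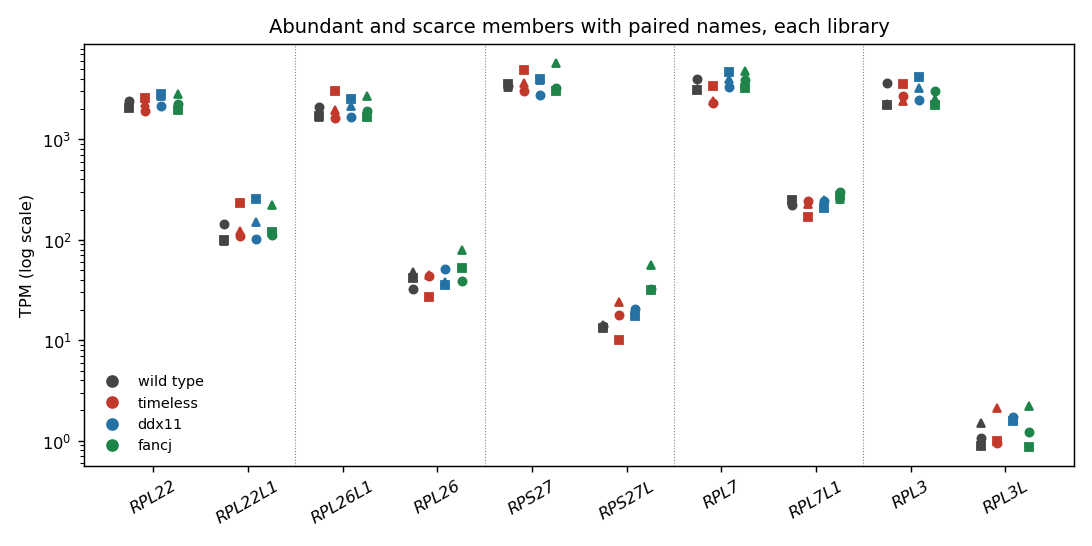
TPM on a log scale of abundant members and of the scarce members with paired names in each of 12 libraries, coloured by line (circle, square and triangle for replicates 1, 2 and 3). *RPS27L* lies at 13.2 to 14.3 TPM in wild type and at 31.5 to 56.3 TPM in *fancj*, while *RPS27* overlaps between the lines.

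Gene groups around the ribosome showed few calls. Of the 70 mitochondrial ribosomal protein genes, 1 was called lower in *timeless* and 0 in the other comparisons (edgeR; 7, 0, 1 and 6 at an unadjusted p under 0.05, and 5, 0, 0 and 1 by DESeq2). Their median log2 fold changes were -0.12 in *timeless*, -0.14 in *ddx11*, 0.40 in *fancj* and 0.02 between *timeless* and *ddx11*. None of the 32 proteasome subunit genes was called (2, 1, 0 and 1 at an unadjusted p under 0.05, and 1, 0, 0 and 0 by DESeq2), with medians of -0.15, -0.11, 0.10 and -0.04. Of 54 ribosome assembly genes 44 were in the files, and 0 were called (5, 0, 2 and 5 at an unadjusted p under 0.05, and 2, 0, 1 and 1 by DESeq2). Their medians were -0.04, -0.13, 0.10 and 0.13, and those of the 14 elongation factors and related genes, of which 0 were called (0, 0, 1 and 1 at an unadjusted p under 0.05, and 0 by DESeq2), were 0.14, 0.16, 0.15 and -0.02. The cytosolic family had the highest median beside these lists in each comparison, but mostly by a small margin. Its median in *fancj*, 0.42, lay close to the 0.40 of the mitochondrial family. In *ddx11* its 0.17 lay close to the 0.16 of the elongation factors. Between *timeless* and *ddx11* its 0.15 lay close to the 0.13 of the assembly genes. In *timeless* it was 0.31 against 0.14 for the elongation factors.

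Of 13 growth-control genes 2 were called in *timeless*, where 8.2% of all genes were (2, 0, 0 and 2 at an unadjusted edgeR p under 0.05 in the 4 comparisons, and 2, 0, 0 and 1 by DESeq2). *RHEB*, the activator of mTOR, fell by 0.71 on the log2 scale (SE 0.16, edgeR adjusted p = 0.0319), and *MAF1*, a repressor of RNA polymerase III, fell by 0.52 (SE 0.13, edgeR adjusted p = 0.0439). The mitochondrial gene called was *MRPL13*, which fell by 0.71 (SE 0.15, edgeR adjusted p = 0.0248). All 3 lie on the chromosome of *RPL7*. The chromosome also held 5 mitochondrial ribosomal protein genes with a median of -0.59 (-0.76 to -0.49) in *timeless*, against -0.10 for the 63 placed elsewhere, and 4 ribosome assembly genes with a median of -0.50, against -0.01 for 40 elsewhere. As for the cytosolic family, each of these genes had a negative log2 fold change in *timeless*. Other growth-control genes, among them *MTOR* and *MYC*, were not called in any comparison, and *MAF1* was the only 1 called between *timeless* and *ddx11*, where it fell by 0.71 (SE 0.15, edgeR adjusted p = 0.0306).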

How the data were processed

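RNA-seq of polyadenylated RNA covered 12 libraries of DT40 cells, 3 from each of 4 lines named in the sample labels. The authors aligned reads to GRCg6a with Bowtie 2 and quantified genes with RSEM and an Ensembl annotation; tool versions and strandedness are not given in the sources used here, so overlapping genes are uncertain. The deposited expected counts are estimated read counts per gene, not normalized and not always whole. The deposited TPM values are transcript levels that the authors corrected for gene length and set to an equal total per library. The deposited FPKM values, scaled to length and depth, were not used, and the authors' effective length (bases) served the length comparison. The files give no columns for comparisons made by the authors.

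Expected counts were rounded and tested with edgeR 4.0.16 in R 4.3.3 (TMM, quasi-likelihood, Benjamini-Hochberg adjustment over all genes tested, adjusted p under 0.05), 6 libraries to a fit, for genes averaging 1 TPM or more in a line of the comparison. EBSeq, used in the study, was not used here. The SE of a log2 fold change was derived from the F statistic. Length trends used log2(TPM + 1). Shares and relative levels are described without a test; 3 libraries against 3 cannot give an exact permutation p below 0.1. Alternatives were DESeq2 1.42.0 (size factors and Wald test), limma 3.58.1 on log2(TPM + 1), other filters, TMM without the family, a length offset, a replicate block, all 12 libraries in 1 fit, and leaving out each library. Scripts were tested on simulated data. No libraries of a line agreed within sampling noise, and p-values measure only the spread between these populations.

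Replicate numbers are shared by all lines, but the labels do not say that they mark pairs. Deviations of same-numbered libraries from their line means correlated at 0.11 to 0.27 between wild type and *fancj* and at 0.40 to 0.57 between *timeless* and *ddx11*. These values were above 0.1 in every pair. They were low between wild type and *fancj*, and whether the numbers mark pairs in those lines remains uncertain. The fits printed first carry no block, and the blocked values stand beside them or with the alternatives. For wild type with *timeless* (-0.08 to 0.24) and with *ddx11* (-0.28 to 0.08) the numbers did not pair the libraries.

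The members, gene lists and tests were chosen with earlier results of these data known. Named genes were members that passed the test, the 3 largest fold changes in each comparison, the 5 highest and 5 lowest members, paralogues, members with a role of their own, the disrupted genes, and the called genes of the other lists; other names were chosen after their values were seen. Chromosomes came from the RefSeq table of GRCg7b, matched by symbol for 69 of 70 members; since the files use GRCg6a, no coordinates are given. Values of some single genes are not reported here.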

Additional observations from a re-analysis of the deposited data

How the results depend on the processing

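The number of ribosomal protein genes called was 0 in all 4 comparisons under most alternatives. The exceptions were 1 call in *timeless* with DESeq2's Wald test (*RPL23*, adjusted p = 0.0486), 1 in *fancj* with DESeq2's Wald test, with no TPM limit and with all 12 libraries in 1 fit (*RPS27L* each time), and 1 each in *fancj* (*RPS27L*, adjusted p = 0.0031) and between *timeless* and *ddx11* (*RPL23*, 0.51, adjusted p = 0.0464) with a replicate block and length offset together, a setting chosen after seeing the data. Leaving out a library gave 0 to 1 calls in *ddx11* and in *fancj* and 0 in the other comparisons. The replicate block alone called 0 members in each comparison, with medians of 0.28, 0.16, 0.29 and 0.15, and changed no other call; over all genes it moved the count of calls in *ddx11* from 301 to 142 and between *timeless* and *ddx11* from 601 to 1629. The causes were not tested.

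The median log2 fold change became -0.0164 in *timeless* and 0.0164 in *fancj* when libraries were scaled to the members, by construction of that setting. Without 1 library it ran from 0.09 to 0.46 in *timeless*, 0.03 to 0.35 in *ddx11*, -0.13 to 0.66 in *fancj* and -0.02 to 0.31 between *timeless* and *ddx11*. *RPLP2* in *fancj* changed sign without *fancj* replicate 3, with a range of -0.0591 to 0.955 over the libraries left out. Of 216 values of single named genes 207 kept their direction and side of the threshold.

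As a share of expected counts the family held 7.71%, 9.26%, 8.85% and 9.39% in wild type, *timeless*, *ddx11* and *fancj*. Over genes with a symbol its share of TPM was 18.29% in wild type and 20.37% in *ddx11*, and without its 5 most abundant members it was 12.5% in wild type. Without 1 library the share ran from 13.82% to 15.27%, 14.77% to 18.5%, 16.0% to 18.88% and 15.16% to 19.59%. The range of length slopes was 0.16 in *timeless* and 0.13 in *ddx11* over genes of at least 10 TPM, and 0.0695 in wild type with a pseudocount of 0.1. Leaving out a library took it to 0.0055 to 0.0318, 0.0134 to 0.14, 0.0236 to 0.0964 and 0.0247 to 0.43, and the range of the members' median to 0.0147 to 0.54, 0.39 to 1.27, 0.29 to 0.97 and 0.42 to 1.47, the lowest in *fancj* being without replicate 3. Depth limits only the scarcest member: *RPL3L* had 9 to 50.0 expected counts in a library.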
